A study of Mus musculus with 8 samples.

Results

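Long intergenic noncoding RNAs (lincRNAs) were followed in fibro/adipogenic progenitors (FAPs), the resident mesenchymal cells of skeletal muscle that can give rise to adipocytes and fibroblasts. The genes were taken by a fixed rule, which kept every autosomal gene of type lincRNA in GENCODE M21 with at least 40 reads summed over the 8 samples and left out *H19* and *Meg3*. The rule kept 123 of the 31053 genes counted, out of 4814 autosomal lincRNA genes in the table, of which 801 had at least 1 read and 676 had between 1 and 39. The members were thus chosen by their read count over all samples, and their overall level is given below as a description only. All cells came from hind limb muscles of *mdx* mice of strain C57BL/10ScSn-Dmdmdx/J aged 45 days, in which the dystrophin gene *Dmd* is mutated in every animal, controls included. FAPs were gated as CD45-, CD31-, Integrin alpha-7- and SCA-1+, sorted into SCA1-High-FAPs and SCA1-Low-FAPs by the level of this surface antigen, and kept for 5 days in growth medium before RNA was taken. There were 4 samples of each cell state, obtained from 4 mice, and the SCA1-Low-FAPs served as the study's control. No wild-type cells entered this comparison, and the time in culture was the same for all samples.

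A lincRNA is a spliced or unspliced transcript, usually made by RNA polymerase II, that lies apart from protein-coding exons and is not known to encode a protein. Some of them act where they are made, on neighbouring genes or on the assembly of nuclear bodies, whereas others host small nucleolar RNAs (snoRNAs) or microRNAs in their introns and exons, or bind microRNAs and proteins in the cytoplasm. Most are present at low copy number. In the 3′ libraries used here a transcript is primed at its poly(A) tail and yields reads near its 3′ end, so that levels are given in CPM, reads of a gene scaled to the TMM-normalised total of its library, and are not divided by transcript length.

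The sequences of the lincRNAs on which the comparison turned are given first. *3300005D01Rik* and *Ptgs2os2* were the only lincRNAs called different by the main test, both with more reads in SCA1-Low-FAPs, and their RefSeq promoter windows (250 bases before to 50 after the annotated start, build GRCm38.p6) are printed with motif matches in capitals. The window of *3300005D01Rik* is chr17:5798407-5798706 on the plus strand and that of *Ptgs2os2* is chr1:150164899-150165198 on the minus strand.
3300005D01Rik: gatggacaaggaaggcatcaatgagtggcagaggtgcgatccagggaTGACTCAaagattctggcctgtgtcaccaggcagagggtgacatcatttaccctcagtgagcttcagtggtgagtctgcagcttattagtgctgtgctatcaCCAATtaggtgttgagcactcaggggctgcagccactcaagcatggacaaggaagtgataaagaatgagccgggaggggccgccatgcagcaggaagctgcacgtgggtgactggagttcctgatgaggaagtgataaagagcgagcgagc
Ptgs2os2: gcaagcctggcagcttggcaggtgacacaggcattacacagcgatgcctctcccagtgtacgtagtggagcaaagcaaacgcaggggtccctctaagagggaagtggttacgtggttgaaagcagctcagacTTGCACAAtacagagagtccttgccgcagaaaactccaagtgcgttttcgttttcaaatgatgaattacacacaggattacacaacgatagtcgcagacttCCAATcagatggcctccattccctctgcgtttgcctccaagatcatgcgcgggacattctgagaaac

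Both strands of each window were searched for 6 short motifs, none of which contains another. These were the TATA box in the form TATAAA, the CCAAT box, the GC box written as GGGCGG, the AP-1 site as TGANTCA, the C/EBP site as TTGCNNAA and the 10-letter NF-kappaB site. In *3300005D01Rik* the capitals mark TGACTCA at position -203 and CCAAT at -101 from the start, and in *Ptgs2os2* they mark TTGCACAA at -118 and CCAAT at -17. Promoter windows were found in RefSeq for 68 of the 123 lincRNAs, with 76 windows between them. CCAAT occurred in 44.7% of these windows and in 37.4% of all 32851 RefSeq windows of this length. GGGCGG occurred in 43.4% against 35.7%, TATAAA in 11.8% against 13.6%, TTGCNNAA in 11.8% against 10.8%, TGANTCA in 6.58% against 7.81% and the NF-kappaB site in 2.63% against 1.63%. These are matches of letters, and binding was not measured.

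Because the libraries start from the poly(A) tail, transcript ends are shown for the same pair of genes and for *Gm48832*, which was detected in SCA1-High-FAPs alone. They are the last 100 bases of the longest annotated transcript of each gene, with the polyadenylation hexamer (AATAAA or ATTAAA) in capitals where it occurs. *3300005D01Rik* has 4 annotated transcripts, *Ptgs2os2* 1 and *Gm48832* 2, and the other transcripts can end elsewhere. The ends shown lie at chr17:5803141-5803240 (plus strand), chr1:150159043-150159142 (minus strand) and chr9:85332440-85332539 (minus strand) of GRCm38.
3300005D01Rik: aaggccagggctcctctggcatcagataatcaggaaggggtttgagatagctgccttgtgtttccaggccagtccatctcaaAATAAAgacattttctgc
Ptgs2os2: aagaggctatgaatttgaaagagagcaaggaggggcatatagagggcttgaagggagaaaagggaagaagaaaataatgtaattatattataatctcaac
Gm48832: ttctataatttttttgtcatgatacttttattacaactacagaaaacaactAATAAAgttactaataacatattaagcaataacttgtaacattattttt

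In the transcript of *3300005D01Rik* shown, the hexamer ended 12 bases before the annotated end. In that of *Gm48832* it ended 43 bases before the end, and the last 100 bases of *Ptgs2os2* held none. The annotated gene *Gm48832* extends beyond the end shown. *Bc1*, a small cytoplasmic RNA made by RNA polymerase III, is shown whole because it was among the 10 most abundant lincRNAs although its annotated 168 bases (chr7:144914470-144914637, plus strand) carry no poly(A) tail of the usual kind. The capitals mark an internal run of 23 A.
Bc1: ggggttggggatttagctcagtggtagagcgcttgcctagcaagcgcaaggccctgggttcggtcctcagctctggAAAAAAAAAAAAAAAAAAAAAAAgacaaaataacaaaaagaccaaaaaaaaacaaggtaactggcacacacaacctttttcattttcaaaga

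A pair of members are known for microRNAs, and the relevant stretches are printed for that reason. *1700020I14Rik*, better known as Cyrano, binds miR-7 through an unusually long match. In its annotated transcript of 8300 bases the match ran from base 2935 to 2959, with 13 bases opposite the 3′ part of the microRNA, 4 unpaired bases and 8 bases opposite its 5′ part. Capitals mark the paired bases of the site and the seed (bases 2 to 8) of the microRNA.
1700020I14Rik: ACAACAAAATCACcaatGTCTTCCA
mmu-miR-7a-5p: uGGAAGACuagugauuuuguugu

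The gene *6720427I07Rik* on chromosome 13 contains 3 members of the let-7 family, which share the seed GAGGUAG (capitals).
mmu-let-7a-5p: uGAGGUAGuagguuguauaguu
mmu-let-7d-5p: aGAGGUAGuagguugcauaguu
mmu-let-7f-5p: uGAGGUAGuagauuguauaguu

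The 8 libraries held 1880561 to 3985656 reads on genes, so that 3 reads in a library corresponded to between 0.792 and 1.63 CPM, a floor that covers counting error only. The 6 FAP markers were all detected and summed to 12926 to 15745 CPM in SCA1-High-FAPs and 7917 to 13692 in SCA1-Low-FAPs. Of these *Dcn* and *Col3a1*, which encode matrix proteins, were called higher in SCA1-High-FAPs, *Ly6a* in SCA1-Low-FAPs, and *Pdgfra* was not called. Of the 6 myogenic markers 4 had 0 reads, among them *Pax7* and *Myod1*, and their sum was at most 6.59 and 12.5 CPM, respectively. The 8 leucocyte markers, with 2 at 0 and 1 read of *Ptprc* (CD45), summed to 28.0 to 48.4 and 17.97 to 24.1 CPM. Of these *Lyz2* alone entered the test, and it was called higher in SCA1-High-FAPs (28.7 and 10.5 CPM on average). Among the others *Csf1r* (3.32 and 5.48 CPM) and *Cd14* (1.58 and 4.38 CPM) had higher means in SCA1-Low-FAPs. Means of *Cd68* (2.88 and 0.477 CPM), *Ptprc* and *Fcer1g* were higher in SCA1-High-FAPs. The 6 endothelial markers, with 2 at 0, reached at most 7.10 and 7.39 CPM in sum, and none entered the test. The 7 cartilage and tendon markers, with 1 at 0, summed to 376 to 549 and 326 to 439 CPM, with *Comp* called higher in SCA1-High-FAPs and *Col2a1* in SCA1-Low-FAPs. *Ly6a*, which encodes SCA-1, had 711 CPM on average in SCA1-High-FAPs after culture, against 1087 in SCA1-Low-FAPs (edgeR, 0.61 on the log2 scale, adjusted *p* = 0.0341), so at the mRNA level it did not follow the surface antigen used for the sort. The summed level of 8 adipocyte markers was 1195 to 6817 CPM in SCA1-High-FAPs and 114 to 656 in SCA1-Low-FAPs, with 4 of 8 called higher in the former and *Lep* at 0. The 5 markers of pericytes and smooth muscle summed to 460 to 1458 and 1961 to 2987 CPM, respectively, with 3 of 5 called higher in SCA1-Low-FAPs. Most of this sum was *Acta2* (946 and 2497 CPM on average), whose protein, alpha-SMA, the paper followed in FAPs becoming myofibroblasts. *Rgs5* (3.28 and 1.91 CPM) and *Mcam* (5.58 and 2.47 CPM) had higher means in SCA1-High-FAPs and did not enter the test. Markers of cycling cells summed to 476 to 662 and 867 to 1309 CPM, with 5 of 5 called higher in SCA1-Low-FAPs. The part of these cell types in the lincRNA values was not tested. Replicate 3 of the SCA1-Low-FAPs stood nearer to the other cell state than any other library, with a mean correlation across genes of 0.919 to the SCA1-High-FAPs.

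Reads on lincRNAs were concentrated in very few genes. The 123 genes took 3.77% to 7.34% of all gene counts in a sample, with a mean of 5.14% ± 0.941 (SD, n = 4) for SCA1-High-FAPs and 5.61% ± 1.598 (SD, n = 4) for SCA1-Low-FAPs. *Gm42418* alone held 89.5% of their 1104340 summed reads, and together with *Malat1* and *Gm26917* it held 97.4%. The typical member was rare, with a median of 91 reads over the 8 samples. In all, 67 members had 40 to 99 reads, 47 had 100 to 999 and 9 had 1000 or more. Reads in every sample were found for 72 members, whereas 51 were missing from at least 1 library. Without the 3 most abundant genes, the remaining 120 took 0.146% to 0.151% of counts in SCA1-High-FAPs and 0.129% to 0.139% in SCA1-Low-FAPs, ranges that did not overlap. The share of reads that aligned to more than 1 position, which are outside the gene counts, was 38.2% ± 1.01 (SD, n = 4) of all reads in SCA1-High-FAPs and 42.2% ± 1.25 (SD, n = 4) in SCA1-Low-FAPs (two-sided exact permutation test over 70 assignments, *p* = 0.0286, the smallest that this design allows).

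**Figure D1:**
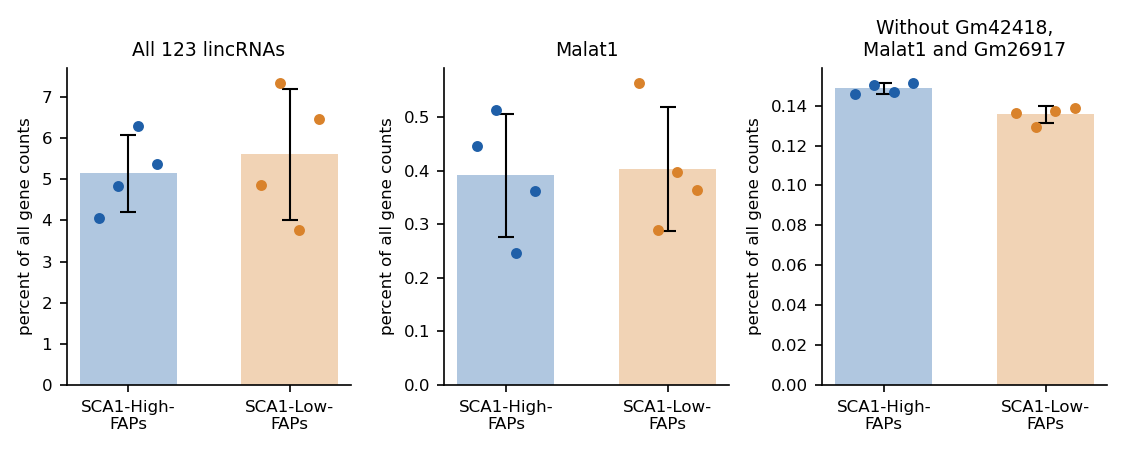
Percent of all gene counts in each sample (points) with the mean (bar) and SD (error bar, n = 4) of each cell state, for all 123 lincRNAs (left), Malat1 (centre) and the 120 genes other than Gm42418, Malat1 and Gm26917 (right). In the right panel all 4 SCA1-High-FAPs samples, at 0.146% to 0.151%, lie above the SCA1-Low-FAPs samples, at 0.129% to 0.139%.

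The gene with the most reads was ribosomal in sequence. *Gm42418* (chr17:39846958-39848788, plus strand, a single exon of 1831 bases) shares 1245 of its bases with *Rn18s-rs5*, a copy of the 18S ribosomal RNA gene in RefSeq, and GENCODE M21 places a ribosomal RNA gene over all 1831 of them on the other strand. Its level was 33367, 41036, 60243 and 48088 CPM in SCA1-High-FAPs and 41474, 70669, 31628 and 62428 CPM in SCA1-Low-FAPs (replicates 1 to 4 throughout). The samples of both states were interleaved, and the log2 fold change, which is positive throughout where SCA1-Low-FAPs were higher, was 0.17 ± 0.24 (SE), with an edgeR adjusted *p* of 0.750. *Gm26917* (chr17:39843013-39846341) ends 12 bases before *Rn18s-rs5*. It had 201, 224, 522 and 480 CPM in SCA1-High-FAPs and 279, 193, 241 and 263 in SCA1-Low-FAPs, with a log2 fold change of -0.55 ± 0.30 and an adjusted *p* of 0.341. Thus replicates 3 and 4 of the SCA1-High-FAPs were above every other library for *Gm26917*. A further gene of this kind, *AY036118*, had 0 reads. Whether reads on these genes came from ribosomal RNA was not tested.

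RNAs of nuclear bodies and chromatin followed in abundance. *Malat1* (chr19:5795690-5802672, minus strand), which localises to nuclear speckles, had 4318, 5063, 2539 and 3608 CPM in SCA1-High-FAPs and 5653, 2952, 3909 and 3823 CPM in SCA1-Low-FAPs. The lowest and the highest library differed by more within each state than the state means of 3882 and 4084 CPM differed, and the log2 fold change was 0.07 ± 0.22 (adjusted *p* = 0.897). *Neat1* (chr19:5824708-5845478), the architectural RNA of paraspeckles, had 196, 192, 139 and 139 CPM against 196, 131, 173 and 171 CPM, with a log2 fold change of 0.01 ± 0.17. For both genes this estimate changed sign when a single library was left out, with a range of -0.12 to 0.24 for *Malat1* and -0.07 to 0.12 for *Neat1* over the 8 such fits. *Pvt1*, which lies next to *Myc*, averaged 12.97 and 11.7 CPM (log2 fold change -0.13), and *Dubr* 26.7 and 23.0 CPM (-0.18). *Trp53cor1* (lincRNA-p21), a target of p53 next to the cell cycle inhibitor gene *Cdkn1a*, had 41 reads in all, at 2.56 ± 0.634 and 1.67 ± 1.20 CPM (SD, n = 4). Matched by symbol, 5 of the 17 genes in the list for this class were members and none was called. The list also names *Oip5os1* (Cyrano), *Lincpint* and *Norad*, which are members under the symbols *1700020I14Rik*, *Lncpint* and *2900097C17Rik* and were not called either. *Norad*, which sequesters Pumilio proteins, appears in the table as *2900097C17Rik*, with 73 reads and a mean of 2.97 CPM in SCA1-High-FAPs against 4.93 CPM in SCA1-Low-FAPs.

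**Figure D2:**
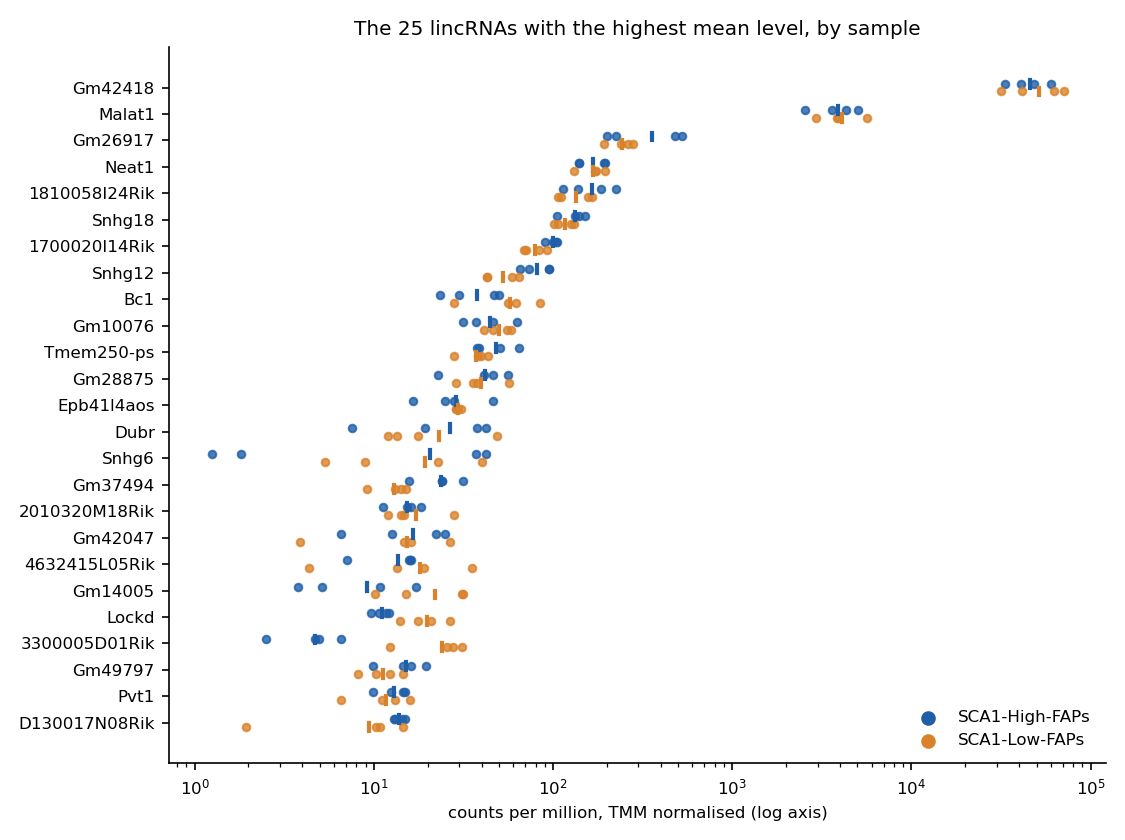
CPM on a log axis for the 25 lincRNAs with the highest mean, 1 point per sample and a vertical bar at each state mean. Gm42418 stands apart at 31628 to 70669 CPM, and in the row of 3300005D01Rik the SCA1-Low-FAPs, at 12.4 to 31.2 CPM, all lie above the SCA1-High-FAPs, at 2.51 to 6.60 CPM.

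Genes that host snoRNAs, small RNAs that guide the modification of ribosomal RNA, ranged from steady to highly variable. *Snhg18* had 105, 132, 140 and 151 CPM in SCA1-High-FAPs and 101.0, 107, 131 and 126 CPM in SCA1-Low-FAPs (edgeR log2 fold change -0.18 ± 0.16, adjusted *p* = 0.592). *Snhg12* (chr4:132308623-132311024), which contains 5 snoRNA genes, had 65.4, 94.5, 73.1 and 94.98 CPM in SCA1-High-FAPs and 43.0, 58.8, 64.7 and 43.0 CPM in SCA1-Low-FAPs. All samples of SCA1-High-FAPs lay above those of SCA1-Low-FAPs, with a log2 fold change of -0.65 ± 0.21, and the adjusted *p* of 0.0636 missed the threshold. *Snhg12* was called without replicate 3 of the SCA1-Low-FAPs (log2 fold change -0.78, adjusted *p* = 0.0331) and among genes with at least 10 reads in every sample (-0.67, adjusted *p* = 0.0497), while its adjusted *p* ran up to 0.192 with another library left out. *Snhg20* pointed the other way, with 2.82, 4.07, 8.35 and 5.50 CPM against 12.6, 13.1, 12.4 and 11.9 CPM (log2 fold change 1.25 ± 0.45, adjusted *p* = 0.107). *Snhg6* was the most variable of the tested members. It had 42.4, 1.81, 1.25 and 37.0 CPM in SCA1-High-FAPs and 5.32, 22.9, 39.96 and 8.98 CPM in SCA1-Low-FAPs, so that the highest replicate was 33.8 times the lowest in SCA1-High-FAPs and 7.52 times in SCA1-Low-FAPs, while the state means were 20.6 and 19.3 CPM. *Snhg10* was at the edge of the rule with 40 reads. Of the 19 snoRNA host genes in the list, these 5 were members and none was called, with log2 fold changes from -0.64 to 1.25 in the fit that included all members. By position, 7 members contained a snoRNA gene (11 snoRNA genes in all).

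The microRNA hosts among the members were expressed at low levels, and hosts outside the rule were not looked at. *Mirg*, which lies in an imprinted region of chromosome 12 and contains 14 annotated microRNA genes, had 2.82, 11.8, 2.51 and 14.7 CPM in SCA1-High-FAPs and 6.77, 6.53, 12.1 and 12.4 CPM in SCA1-Low-FAPs (edgeR log2 fold change 0.26 ± 0.56, adjusted *p* = 0.853). The host of the let-7 genes printed above, *6720427I07Rik*, had 10.8, 4.52, 7.52 and 1.83 CPM against 6.28, 4.36, 5.39 and 4.49 CPM (log2 fold change -0.25 ± 0.58). *Lncpint* averaged 4.32 and 6.60 CPM and *Carmn*, a smooth muscle and cardiac host of miR-143 and miR-145, 1.69 and 3.52 CPM. None of these passed the test. In all, 5 members contained 20 microRNA genes, 3 of the 19 genes in the list of microRNA hosts were members and none was called. *B830012L14Rik*, the other member of the imprinted list (2 of 9), had 51 reads. Mature microRNAs are not captured by these libraries.

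Among the other abundant members, *1700020I14Rik* (Cyrano, chr2:119594297-119607502) had the smallest spread of all tested members. It had 104, 90.4, 105 and 99.7 CPM in SCA1-High-FAPs and 92.3, 83.9, 68.8 and 71.0 CPM in SCA1-Low-FAPs, with a log2 fold change of -0.34 ± 0.17 and an adjusted *p* of 0.254. *Bc1*, printed above with its run of A, had 47.1, 29.8, 23.4 and 50.2 CPM against 28.0, 62.6, 55.8 and 85.0 CPM (log2 fold change 0.63 ± 0.31, adjusted *p* = 0.265), and the states overlapped. *1810058I24Rik*, which RefSeq classes as protein-coding and which encodes a mitochondrial micropeptide, averaged 165 ± 49.0 and 135 ± 29.9 CPM (SD, n = 4). *Gm10076*, a pseudogene in RefSeq, averaged 44.4 ± 13.7 and 50.3 ± 7.81 CPM. RefSeq types 76 members as lncRNA, 5 as protein-coding, 2 as transcribed pseudogenes and 1 as pseudogene, and has no entry for 39. None of the 10 most abundant lincRNAs was called in the main test, in which *Snhg12* came nearest.

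Of the genes next to developmental regulators 2 of 14 were members. *Hotair*, transcribed from the HoxC cluster, had 15, 0, 5 and 12 reads in SCA1-High-FAPs and 11, 11, 11 and 10 in SCA1-Low-FAPs, and was missing from replicate 2 of the former. *Bvht* had 68 reads in all. Neither was called.

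The comparison of the cell states was made on all genes with edgeR, and a gene was called at an adjusted *p* under 0.05 and a log2 fold change beyond 0.5. After the filter on low counts 61 of the 123 lincRNAs entered the test, and the 62 left out had 40 to 95 reads. The test called 2 of 61, or 3.28%, beside 7.68% of all 10181 genes tested, and both were higher in SCA1-Low-FAPs, the direction of 3.32% of all genes, with 0 against 4.36% in the other. At an unadjusted *p* under 0.05 there were 8 of 61 (13.1%), beside 21.3% of all genes. The median log2 fold change of the tested lincRNAs was -0.16 and that of all genes was 0.00029, while the median standard error was 0.49 against 0.28. Fold changes within 0.5 of 0 were found for 36 of the 61. To cover every member, the same model was fitted to the 11315 genes with at least 40 reads. It called 4 of 123, or 3.25%, beside 7.17% of all genes. Of these 2 were higher in SCA1-Low-FAPs (3.08% of all genes) and 2 in SCA1-High-FAPs (4.09% of all genes). DESeq2 called 4 as well, beside 8.53% of the 12487 genes to which it gave an adjusted *p*. Without replicate 3 of the SCA1-Low-FAPs the main test called 4, beside 9.85% of all genes, and the wider one 6, beside 9.05%. *Snhg12* and *Gm38910* were the members added in both. In the CPM, 10 of 123 lincRNAs (8.13%) had cell states that did not overlap, beside 13.5% of all 11315 genes, 6 with SCA1-High-FAPs above (7.20% of all genes) and 4 with SCA1-Low-FAPs above (6.32%). In bulk RNA, fewer cells of a type and less RNA per cell cannot be told apart.

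**Figure D3:**
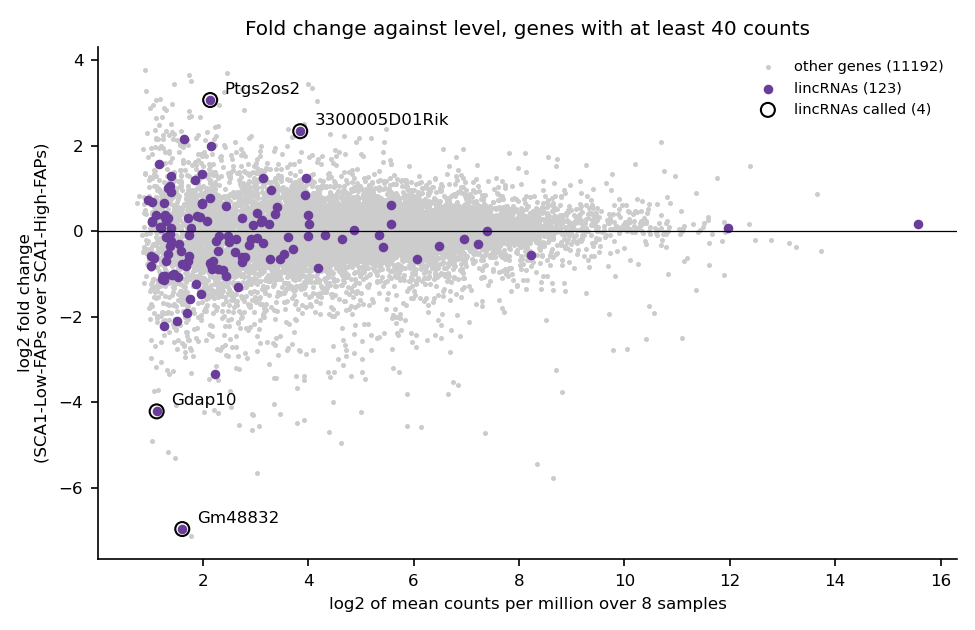
Log2 fold change (SCA1-Low-FAPs relative to SCA1-High-FAPs, edgeR) against log2 mean CPM for the 11315 genes with at least 40 reads, with the 123 lincRNAs as filled points and the 4 called ones ringed. The called lincRNAs lie at low levels, 3300005D01Rik at 2.34 and Ptgs2os2 at 3.07 above the line, Gdap10 at -4.21 and Gm48832 at -6.96 below it.

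*3300005D01Rik* (ENSMUSG00000096965, chr17:5798657-5803240, plus strand, up to 3 exons), a lincRNA of no function known here, was higher in SCA1-Low-FAPs. It had 4.71, 4.97, 2.51 and 6.60 CPM in SCA1-High-FAPs and 27.6, 25.6, 12.4 and 31.2 CPM in SCA1-Low-FAPs, from 45 and 261 reads. Every SCA1-Low-FAPs sample was above every SCA1-High-FAPs sample, and the lowest of the former was replicate 3. The log2 fold change was 2.34 ± 0.41, with an adjusted *p* of 0.00214, and the gene was called with each of the 8 libraries left out in turn (adjusted *p* 0.000539 to 0.0160). Its nearest protein-coding gene, *Snx9*, begins 38089 bases further along the same strand and encodes a sorting nexin of clathrin-mediated endocytosis. *Snx9* had 31.7 ± 6.24 and 45.3 ± 11.3 CPM (SD, n = 4), with overlapping states, a log2 fold change of 0.51 ± 0.25 and an adjusted *p* of 0.238.

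*Ptgs2os2* (ENSMUSG00000097754, chr1:150159043-150164948, minus strand, 2 exons), known as lincRNA-Cox2 and induced with inflammatory genes in macrophages, had 0, 0.904, 0 and 2.57 CPM in SCA1-High-FAPs and 7.25, 5.44, 5.71 and 13.5 CPM in SCA1-Low-FAPs. These values rest on 9 and 94 reads, and the states did not overlap. *Ptgs2os2* thus passed the rule on summed reads mainly through SCA1-Low-FAPs, so a difference was in part built into its selection. The log2 fold change was 3.07 ± 0.82, with an adjusted *p* of 0.0282. The call was lost when replicate 1, 2 or 3 of the SCA1-High-FAPs or replicate 1 or 4 of the SCA1-Low-FAPs was left out (adjusted *p* 0.0117 to 0.153 over the 8 fits), while the log2 fold change stayed between 2.67 and 4.55. *Ptgs2*, which encodes the inducible cyclooxygenase that starts prostaglandin synthesis, lies tail to tail with it at a distance of 50816 bases. Its levels were 10.8, 10.9, 0 and 19.4 CPM in SCA1-High-FAPs and 24.7, 55.0, 33.9 and 37.8 CPM in SCA1-Low-FAPs. The states did not overlap for *Ptgs2* either, and with a log2 fold change of 1.86 ± 0.68 the adjusted *p* was 0.147.

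The members called in the wider fit alone, *Gdap10* and *Gm48832*, had nearly all of their reads in SCA1-High-FAPs, and the filter on low counts had left both out of the main test. They passed the rule almost wholly through that cell state, so a difference was built into their selection. *Gdap10* (ENSMUSG00000096954, chr12:32821872-32826904, plus strand) had 9, 11, 6 and 14 reads in SCA1-High-FAPs and 0, 0, 2 and 0 in SCA1-Low-FAPs. Pooled over the libraries, its level was 23.4 times higher in the former, with a 95% interval of 6.08 to 200.1 from counting error alone. The log2 fold change was -4.21 ± 1.13, with an adjusted *p* of 0.0285 that ran up to 0.110 as libraries were left out and passed in 2 of 8 such fits, those without replicate 3 of either state. *Gdap10* is annotated inside *Nampt* on the same strand, without a shared exonic base. *Nampt*, which encodes the rate-limiting enzyme of NAD salvage, had 103 ± 30.7 CPM in SCA1-High-FAPs against 48.6 ± 3.55 CPM in SCA1-Low-FAPs (SD, n = 4; log2 fold change -1.08 ± 0.21, adjusted *p* = 0.00405). Reads of *Nampt* introns and of *Gdap10* cannot be told apart by position.

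*Gm48832* (ENSMUSG00000111840, chr9:85332352-85348065, minus strand) had 15, 1, 38 and 3 reads in SCA1-High-FAPs and none in any SCA1-Low-FAPs library. Against a floor of 3 reads over the whole SCA1-Low-FAPs group, the pooled level (reads per read on genes) was 22.3-fold higher in SCA1-High-FAPs. This bound allows for counting error in the empty group only, and not for the spread between replicates. The adjusted *p* was 0.0194 and passed in 5 of 8 fits with a library left out. It missed the threshold without replicate 3 of the SCA1-High-FAPs (0.0813) or replicate 1 (0.0531) or 4 (0.0580) of the SCA1-Low-FAPs. Replicates 1 and 3 carried most of its reads. The 8 adipocyte markers summed to 6817 and 3892 CPM in these libraries, against 2285 and 1195 CPM in replicates 2 and 4. *Plin1* and *Fabp4*, however, were higher in replicate 2 than in replicate 3. Replicate 1 had the highest sum but fewer reads of *Gm48832* than replicate 3. The part of adipocyte-like cells in the level of *Gm48832* was not tested. *Tent5a*, 5004 bases downstream on the same strand, had 198 ± 41.1 CPM in SCA1-High-FAPs against 76.5 ± 20.9 CPM in SCA1-Low-FAPs (SD, n = 4; log2 fold change -1.37 ± 0.20, adjusted *p* = 0.000671). *Gm38910*, named after its values were seen, had a similar split, with 10, 0, 38 and 38 reads against 1, 0, 8 and 0. It passed the rule mainly through SCA1-High-FAPs (86 reads against 9), so a difference was in part built into its selection. In the wider fit it was not called (log2 fold change -3.34 ± 1.15, edgeR adjusted *p* = 0.0961). It was called there without replicate 3 of the SCA1-Low-FAPs (log2 fold change -5.56, adjusted *p* = 0.0224) or without replicate 2 of the SCA1-High-FAPs (-3.74, adjusted *p* = 0.0238), and its adjusted *p* ran up to 0.237 with another library left out.

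**Figure D4:**
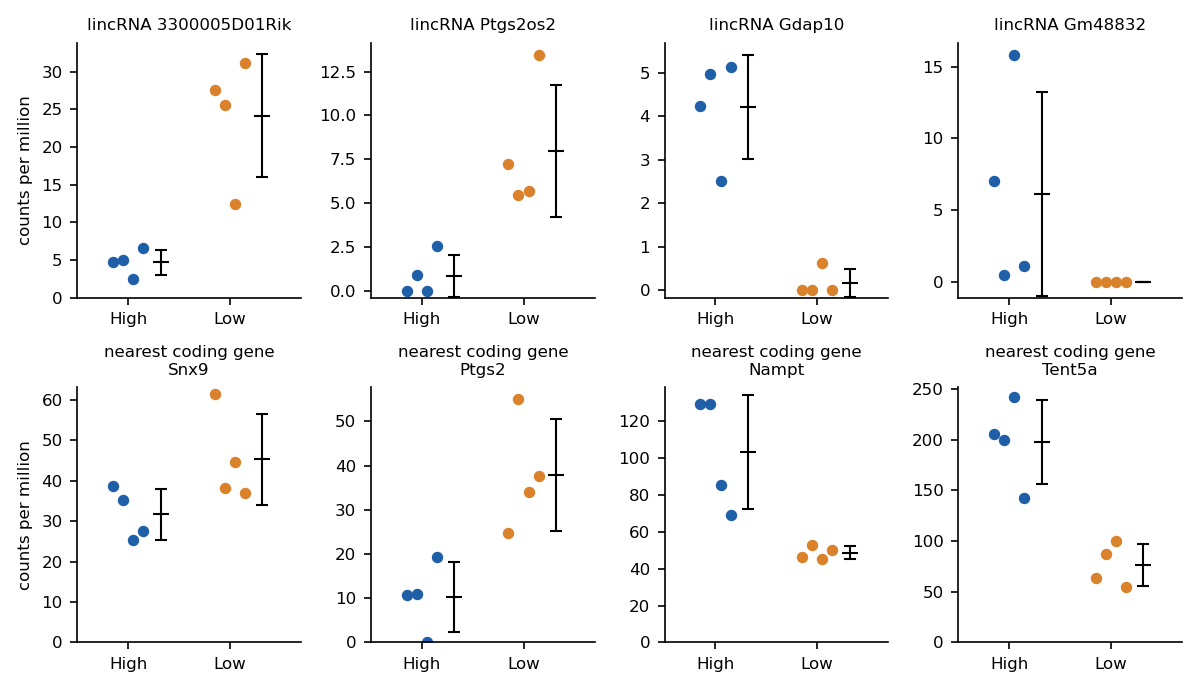
CPM in each SCA1-High-FAPs (High) and SCA1-Low-FAPs (Low) sample, with mean and SD (n = 4) beside them, for the 4 lincRNAs called in the wider fit (top row) and the nearest protein-coding gene of each (bottom row). The 4 pairs have the same direction, and the states overlap for Snx9 alone.

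Besides *Snhg12* and *Snhg20*, 4 members had an unadjusted *p* under 0.05 without being called, and are named here after their values were seen. *Lockd*, which lies 3579 bases downstream of the cell cycle inhibitor gene *Cdkn1b*, had 12.2, 11.8, 9.60 and 10.6 CPM in SCA1-High-FAPs against 14.02, 26.7, 17.8 and 20.9 CPM in SCA1-Low-FAPs (edgeR log2 fold change 0.84 ± 0.33, adjusted *p* = 0.135). *Cdkn1b* itself had 91.6 ± 20.1 and 72.7 ± 13.7 CPM (SD, n = 4). *Gm14005*, near the pro-apoptotic gene *Bcl2l11*, had a log2 fold change of 1.24 ± 0.48, *Gm37494* of -0.86 ± 0.31 and *Gm20342* of -1.30 ± 0.61, with adjusted *p* between 0.108 and 0.227 in edgeR.

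Most lincRNAs lay close to a protein-coding gene. The median distance was 3579 bases, 77 of 123 were within 10000 bases and 15 overlapped the gene. Head-to-head pairs were the most frequent arrangement, with 38 members, of which 26 had starts within 5000 bases of each other. Another 27 lay downstream of the gene on its strand, 24 upstream on its strand, 19 tail to tail, 11 overlapped on the same strand and 4 on the other. For 88 members the neighbour was in the wider fit, and 9 of these neighbours were called (10.2%, or 8 of 85 distinct genes), beside 7.17% of all genes and 5.96% of the nearest coding neighbours of autosomal protein-coding genes. The signs of the log2 fold changes were equal in 63 of 88 pairs (71.6%). Of 7066 autosomal protein-coding genes, 3797 (53.7%) had the sign of their nearest other coding gene, and mutual neighbours count from both sides there. These genes were not matched to the lincRNAs in distance, orientation or reads. Among the lincRNA pairs, signs were equal in 70.6% of 34 head-to-head pairs and 85.7% of 14 pairs with the lincRNA upstream on the same strand. The share was 65.0% of 20 pairs with it downstream on the same strand. For pairs on opposite strands it was 34 of 49 (69.4%). Neighbours in a pair are not independent of shared reads where they overlap, since the strand setting of the counting is not stated.

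Called neighbours were set beside their lincRNAs in the wider fit. *Snhg18* starts 148 bases from *Sema5a*, a semaphorin gene with 16.1 ± 8.09 CPM in SCA1-High-FAPs against 2.58 ± 2.06 CPM in SCA1-Low-FAPs (SD, n = 4; log2 fold change -2.58 ± 0.62), whereas *Snhg18* differed by -0.18, the same sign but not called. The signs were opposite in 2 pairs. *Cdkn1a* was higher in SCA1-Low-FAPs, with 353 ± 30.5 and 793 ± 195 CPM (log2 fold change 1.17 ± 0.17), while *Trp53cor1*, 11797 bases away, had a log2 fold change of -0.62 ± 0.87 from its 41 reads. *Cp*, the ceruloplasmin gene 58070 bases from *4632415L05Rik*, had a log2 fold change of -3.99 ± 0.45, and that of the lincRNA was 0.38 ± 0.47. The remaining called neighbours, *Setd1b* (next to *4932422M17Rik* and *AI480526*), *Jarid2* (*Gm34084*), *Irs2* (*3930402G23Rik*), *Nampt* and *Tent5a*, were lower in SCA1-Low-FAPs, as were the estimates of their lincRNAs.

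The spread between replicates of one cell state had higher medians for lincRNAs than for protein-coding genes in the same range of reads, which was not tested. Genes were not matched in reads within a range, and spread falls with reads. The 3 ranges held 67, 47 and 9 lincRNAs beside 1163, 5953 and 3585 protein-coding genes. The median SD of log2 CPM within states was 1.04 against 0.91 for genes with 40 to 99 reads, 0.59 against 0.47 for 100 to 999 reads and 0.38 against 0.25 for 1000 reads or more. Among the tested members it was smallest for *1700020I14Rik* (0.156), *Snhg18* (0.204) and *Neat1* (0.261) and largest for *Snhg6* (1.90), *Gm17382* (1.61) and *1700048O20Rik* (1.33). *Gm17382* had 3, 30, 17 and 35 reads in SCA1-High-FAPs and 17, 0, 36 and 41 in SCA1-Low-FAPs.

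**Figure D5:**
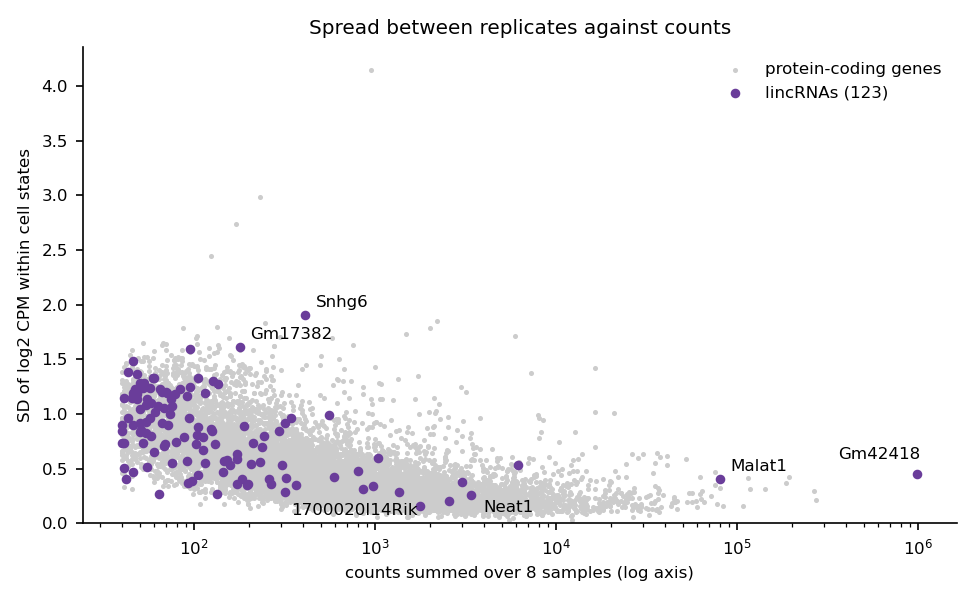
SD of log2 CPM within cell states (4 samples each, variances averaged over the states) against the counts summed over 8 samples on a log axis, for protein-coding genes with at least 40 reads (grey) and the 123 lincRNAs (purple). Spread falls with counts, from a median of 1.04 for lincRNAs with 40 to 99 reads to 0.38 for those with 1000 or more, and Snhg6 stands highest among the lincRNAs at 1.90.

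The detected lincRNAs differed in structure from those with fewer reads. Their median exonic length was 2249 bases, against 1617 for the 676 genes with 1 to 39 reads and 908 for the 4013 with none. Single-exon genes made up 21.1%, 11.8% and 4.81% of these classes. An AATAAA or ATTAAA hexamer lay in the last 50 bases of at least 1 annotated transcript in 73.2%, 59.8% and 46.6%, and a run of 15 or more A, as in *Bc1*, occurred in 13.01%, 5.03% and 1.64%. Exonic length was counted over the exons of all transcripts of a gene. The hexamer and A-run shares count a gene if any of its transcripts qualifies, and the median number of transcripts was 2, 1 and 1. The lengths and these shares can therefore differ with the number of annotated transcripts alone. The GC content was alike, with medians of 47.2%, 46.6% and 46.4%. No test was made of these differences.

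At the limit of the rule, *2610037D02Rik*, *9330104G04Rik* and *Snhg10* were just inside with 40 reads each, and *2810032G03Rik*, *Gm28050* and *Gm38563* just outside with 39. The reads of *Snhg10* were 7, 5, 0 and 2 in SCA1-High-FAPs and 2, 8, 10 and 6 in SCA1-Low-FAPs, and those of *Gm28050* were 1, 8, 7 and 4 and 4, 3, 4 and 8.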

How the data were processed

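Total RNA of 8 cultured FAP samples was made into 3′ mRNA libraries. The authors trimmed the reads, aligned them with STAR to the mouse genome (mm10) and deposited raw counts per Ensembl 93 gene from htseq-count, as whole numbers without normalisation. Reads with more than 1 alignment were kept out of genes. The strand setting is not given in the sources used here. Summary entries were not taken as genes, and 31011 genes were matched to GENCODE M21.

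The cell states were compared on all genes in edgeR 4.0.16 (R 4.3.3), using its robust quasi-likelihood test with TMM normalisation, filterByExpr and Benjamini-Hochberg adjustment. Adjusted *p* come from edgeR where DESeq2 (1.42.0) is not named. The standard error was obtained as the log2 fold change over the root of the F statistic. CPM are TMM-normalised, and log2 CPM used a prior count of 2. A wider fit kept genes with at least 40 counts. Thresholds were an adjusted *p* under 0.05 and a log2 fold change beyond 0.5. Intervals of read counts are exact binomial intervals at the 95% level. Sequences are from RefSeq (promoters, miRNAs) and GENCODE M21 transcripts.

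Named lincRNAs were the 10 most abundant, those called, those at the count limit, the 3 most and 3 least variable, and members of 6 lists of known lincRNAs. Members and lists were chosen with earlier results of these data known. The replicate numbers of the cell states did not pair, with correlations of deviations from -0.0502 to 0.00673 between samples of equal number. Between samples of unequal number they ran from -0.282 to 0.255. No label said which samples shared a mouse, so a pairing by mouse was not modelled and its effect was not tested. Alternatives were other filters, RLE factors, DESeq2, the replicate block, stricter thresholds and each replicate left out. The tests were checked on simulated counts with known changes.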

Additional observations from a re-analysis of the deposited data

Results flagged for a closer look

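Values were looked at within each cell state for 33 named lincRNAs and 3 shares of counts, and a sample was singled out when its gap to the nearest other sample exceeded, as a part of the range of the 4 samples, the 95% critical value of Dixon's test. For normally distributed values chance alone does this in about 1 of 20 groups, a rate that need not hold for genes with few reads. Of the 72 groups 5 met the criterion. *Dubr* reached 48.8 CPM in SCA1-Low-FAPs replicate 4, against 12.0 to 17.8 CPM in the other samples of that state. *Gm20342* had 0.483 CPM in SCA1-Low-FAPs replicate 1, against 4.44 to 4.90 CPM in the others. *Bvht* was highest in replicate 3 of both states, with 7.93 CPM in SCA1-High-FAPs (2.20 to 3.16 CPM in the others) and 5.71 CPM in SCA1-Low-FAPs (1.32 to 1.93 CPM in the others). *Gdap10* had 0.634 CPM, or 2 reads, in SCA1-Low-FAPs replicate 3 and 0 in the other samples of that state. With 0 in the others, any value above 0 would meet the criterion.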

How the results depend on the processing

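Which lincRNAs were called depended on how genes were filtered. In place of 2 calls in the main test (2 higher in SCA1-Low-FAPs, 0 in SCA1-High-FAPs), DESeq2 gave 4 (2 higher in SCA1-High-FAPs), the wider fit 4 (2 higher in SCA1-High-FAPs), no filter beyond 1 count 6 (3 higher in SCA1-High-FAPs, beside 6.63% of all genes called in either direction) and at least 10 counts in every sample 1 (beside 8.77%), with 0 higher in SCA1-Low-FAPs and 1, *Snhg12*, in SCA1-High-FAPs, since *3300005D01Rik* and *Ptgs2os2* were then not tested. An adjusted *p* under 0.01 left 1, which was higher in SCA1-Low-FAPs. With a replicate left out, 1 to 4 were called (1 to 2 higher in SCA1-Low-FAPs, 0 to 2 in SCA1-High-FAPs), beside 3.96% to 9.85% of all genes. The count was 1 without SCA1-High-FAPs replicate 1 or 3 or SCA1-Low-FAPs replicate 1 or 4, and 4 without SCA1-Low-FAPs replicate 3. In the wider fit it was 1 to 6 (1 to 2 and 0 to 4), beside 3.60% to 9.05% of all genes, and 1 without SCA1-Low-FAPs replicate 1 or 4. The same-numbered samples did not deviate together, and a fit blocked on replicate number (replicate block) called 3 in edgeR (*Gm14005* added, beside 6.85% of all genes) and 5 in DESeq2 (3 higher in SCA1-High-FAPs, *Gm38910* added, beside 6.88%). In the wider fit the block called 4, beside 6.37%, with *Gm14005* added and *Gdap10* lost (adjusted *p* = 0.0877), so that 1, *Gm48832*, was higher in SCA1-High-FAPs. Taking *Gm42418* and *Gm26917* out of the table, an alternative added after seeing the data like those of the wider fit, left 2 and 4 calls. Apart from genes that a filter leaves out, the cause of these shifts was not tested.

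Called lincRNAs with a neighbour of the same sign numbered 2 at any distance, 1 within 50 kb, 0 within 10 kb, 1 on the other strand, 4 with DESeq2 and 1 to 3 with a replicate left out. Without *Gm42418* and *Gm26917* the lincRNAs held 0.540% of counts in SCA1-High-FAPs against 0.538% in SCA1-Low-FAPs, and without *Malat1* as well 0.149% and 0.136%. With a replicate left out the means of all members ran from 4.76% to 5.50% and from 5.03% to 6.22%.

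The lincRNAs called in the main or the wider fit kept their sign in all settings. Of 33 named, 10 reversed in some setting, none of them called. With a replicate left out, log2 fold changes ran from -0.0091 to 0.34 for *Gm42418*, -0.12 to 0.24 for *Malat1*, -0.067 to 0.12 for *Neat1*, -0.63 to 0.62 for *1700048O20Rik*, -0.50 to 0.22 for *Gm17382*, -0.77 to 0.50 for *Snhg6*, -0.037 to 0.75 for *Mirg*, -0.89 to 0.14 for *Dubr*, -0.33 to 0.057 for *Pvt1* and -0.067 to 0.93 for *Hotair*. At least 10 counts in every sample gave -0.013 for *Neat1*, and the replicate block gave 0.12 and, in DESeq2, 0.27 for *1700048O20Rik* and 0.34 and 0.81 for *Snhg6*. The median log2 fold change of all genes ran from -0.02 to 0.01 over the fits. A lincRNA at the limit of 40 reads averages 5 reads in each of 8 libraries, which limits the differences that can be detected.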

Other observations

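The shares of *Gm42418* and *Malat1* in the gene counts tended in opposite directions over the 8 samples, a relation looked at after the values had been seen. Pearson's r was -0.69 (exact permutation *p* = 0.0597) and Spearman's rho was -0.67 (exact permutation *p* = 0.0831). Without the 2 samples farthest from the median of *Gm42418*, r was -0.61 (n = 6, exact permutation *p* = 0.203), so the relation did not pass the threshold in any form. It was the only relation of this kind computed, each cell state held too few samples for a value of its own, and both measures are shares of the same totals.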
